A study of Caenorhabditis elegans with 95 samples.

Results

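Cytochrome P450 enzymes are heme proteins that insert oxygen into fatty acids, sterols and foreign compounds, with electrons passed on by a P450 reductase (emb-8 in the worm) or by cytochrome b5. In Caenorhabditis elegans most of them are named with the prefix cyp- followed by a family number, a subfamily letter and a gene number, and many lie side by side as recent duplicates. The cyp-35, cyp-34 and cyp-33 families are best known from the intestine, where several members are induced by foreign compounds, while the cyp-31 enzymes make the lipid layer of the eggshell.

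The genes described here are those whose symbol starts with cyp- and whose median level was at least 0.5 CPM (a gene's read count divided by the total count of its library and scaled to 1e6) in N2 or in CB4856. Of 46904 genes in the count table, 74 carried such a symbol and 60 passed. Of the 60, 49 passed in both strains, 10 in CB4856 only and 1, cyp-34A2, in N2 only, so the 11 that passed in 1 strain had to differ between the strains to some degree. The genes just inside the limit were cyp-13A3 (0.538 CPM in CB4856) and cyp-33C6 (0.542 CPM in CB4856). The genes just outside were cyp-29A4 (0.447 CPM in CB4856) and cyp-34A10 (0.433 CPM in CB4856). The other 12 genes left out were cyp-13A11, cyp-13B2, cyp-14A3, cyp-25A6, cyp-33B1, cyp-33C1, cyp-33C11, cyp-34A1, cyp-34A7, cyp-35A1, cyp-35B2 and cyp-35B3. All 60 genes kept are protein coding, 31 of them lie on chromosome V, 12 on II, 6 on IV, 5 on III, 5 on X and 1 on I, and they fall into 24 subfamilies. The P450 gene daf-9 has another kind of symbol and is treated below among the related genes.

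RNA was sequenced from whole worms of 85 recombinant inbred advanced intercross lines (RIAILs, 1 library each) and of the strains N2 (the laboratory reference strain, 4 libraries) and CB4856 (a wild isolate from Hawaii, 6 libraries). Every library, the parental ones included, came from worms on 15 µg/mL doxycycline (Dox, an antibiotic that blocks mitochondrial translation), so no level here is an untreated level. The RIAILs descend from a cross of CB4856 with QX1430, an engineered strain in the N2 background, and the N2 libraries are therefore not the exact parent of the lines. The study's methods describe harvest at the L4 larval stage, whereas the labels describe plates for survival assays with 5FU, an inhibitor used to stop progeny. Whether the sequenced worms were exposed to 5FU is not settled, and no age is given per library. Library names start with a letter from A to G, called the library series here. Each series holds 7 to 19 RIAILs, and only series B, F and G hold a library of N2 as well as of CB4856. Library totals were 22121202 to 23879871 counts. The labels do not state whether libraries of N2 or of CB4856 were grown as separate cultures. The p-values below therefore rest on library-to-library spread, which may be technical.

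Reads were aligned to the N2 genome, so reads from CB4856 sequence that differs from it may be lost or counted for another gene. Counts of related genes (such as those within cyp-13A, cyp-31A, cyp-33C, cyp-34A or cyp-35) may also share reads. How alike their sequences are was not measured. Of the 60 genes, 19 overlap an exon of another gene, with no strand setting given. These limits hold for every value below, and their part in the differences was not tested. Since whole worms were sequenced, fewer cells of a type and less RNA per cell cannot be told apart.

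The family was dominated by cyp-14A5, a gene of chromosome V (its subfamily members cyp-14A1, cyp-14A2 and cyp-14A4 lie on X). Its level in the RIAILs was 85.8 CPM at the lowest, 206.8 at the median and 501 at the highest. This single gene made up 34.3% of the summed CPM of all 60 genes in the median N2 library (range 31.8 to 46.2%), 20.8% in the median CB4856 library (15.9 to 25.5%) and 27.5% in the median RIAIL (13.1 to 39.9%). The 4 N2 libraries read 457, 190, 184 and 244 CPM, and the CB4856 libraries ran from 123 to 296 CPM around a median of 150. The ranges overlapped, and the log2 fold change of -0.58 (SE 0.32) did not pass the test (adjusted p = 0.261, edgeR's quasi-likelihood test).

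Levels of different genes were compared per kilobase of exon. On that scale cyp-14A5 stood at 132.5 CPM per kb in the median RIAIL, 5.36 times the next gene. The 9 genes that followed were cyp-37A1 (24.7 CPM per kb), cyp-35A2 (24.69), cyp-33C8 (16.8), cyp-37B1 (16.03), cyp-43A1 (15.7), cyp-29A2 (15.5), cyp-33C9 (13.8), cyp-42A1 (12.5) and cyp-35C1 (12.1). The 60 genes had a median of 3.72 CPM per kb and reached down to 0.189 for cyp-33C12. Low genes rest on few reads: cyp-13A3, just inside the limit, had a median of 12.5 reads per CB4856 library. The sum over the family was 568.2 to 990.2 CPM in N2 (median 637), 677 to 1161 in CB4856 (median 743) and 503 to 1314 in the RIAILs (median 755), so all 3 groups overlapped.

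The comparison of N2 with CB4856 asks which P450 genes differ between the founder backgrounds of the lines. Of the 60 genes, 18 were higher and 4 lower in CB4856 at an adjusted p under 0.05 by edgeR's quasi-likelihood test. Over all 15718 genes tested, 8.79% were higher and 7.28% lower. The median log2 fold change was 0.60 over the 60 genes and -0.0048 over all genes, and 44 of the 60 lay above 0. Among the 49 genes that passed the level limit in both strains, 15 were higher and 3 lower. Their median log2 fold change was 0.41, and 34 of the 49 lay above 0. Chromosome V, which holds 31 of the 60 members, held 12 of the 18 higher genes. The share of all genes of chromosome V that were higher was not counted.

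**Figure D1:**
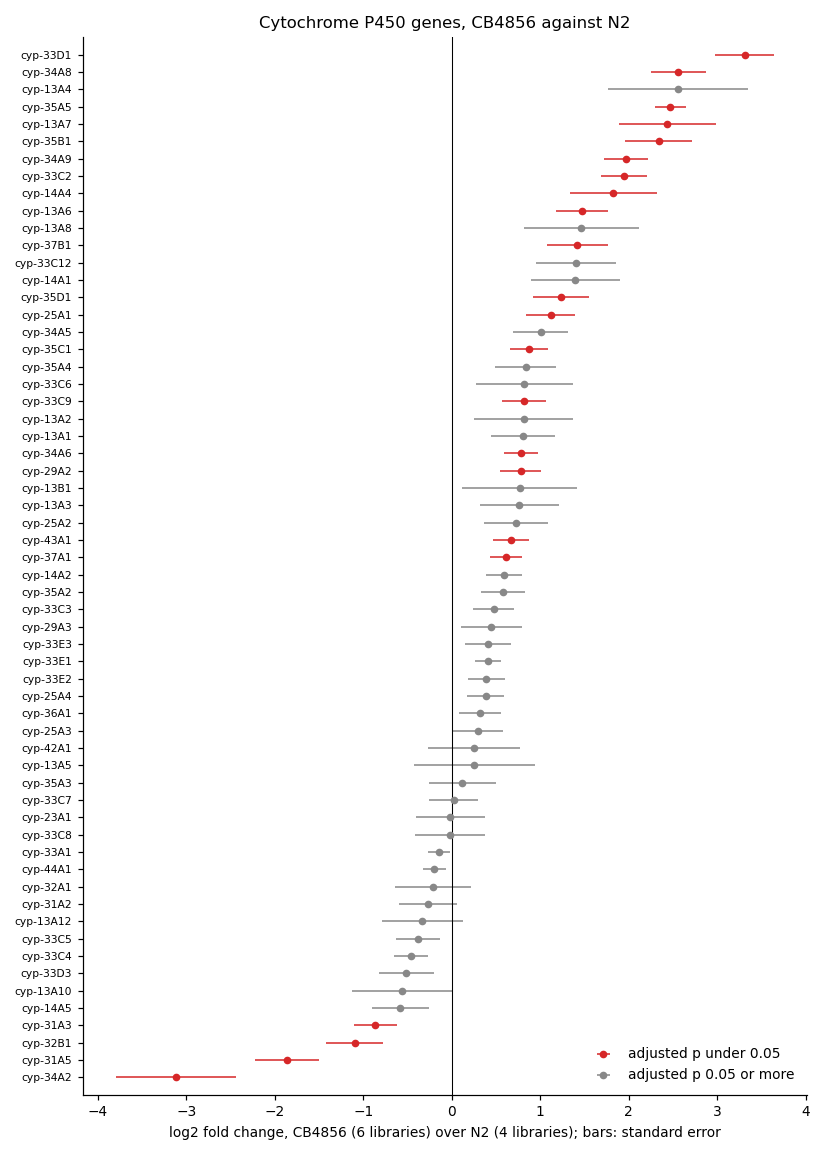
Each row is 1 of the 60 cyp genes, and the x axis is its log2 fold change of CB4856 (6 libraries) over N2 (4 libraries). Points are edgeR estimates, bars are standard errors, and red marks an adjusted p under 0.05. The red points run from 3.31 for cyp-33D1 down to -3.12 for cyp-34A2, with 18 to the right of 0 and 4 to the left.

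A block of 6 members on chromosome V held 5 of the 18 higher genes. In the WBcel235 genome it starts with cyp-35A5 (WBGene00019473, V, 3936326 to 3938597, plus strand) and cyp-35B1 (WBGene00019472, 3939032 to 3941237, plus strand). It ends with cyp-34A5, cyp-34A6, cyp-34A8 (WBGene00015043, 3964797 to 3967823, minus strand) and cyp-34A9 (WBGene00015044, 3968134 to 3970540, minus strand). All values below come from the deposited counts of these protein-coding genes. The genes cyp-35B2, cyp-35B3, cyp-34A7 and cyp-34A10, which lie in or beside the same block, were under the level limit. The share of all genes of this interval that were higher was not counted, so the 5 cannot be read as particular to P450 genes.

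The cyp-35A genes respond to foreign compounds and have been tied to intestinal fat storage. In N2, cyp-35A5 read 5.65, 6.91, 5.85 and 6.24 CPM. In CB4856 it read 23.6 CPM at the lowest, 31.5 at the median and 40.3 at the highest. The strains did not overlap, and the mean was 5.16 times as high in CB4856 (31.8 ± 6.09 CPM, SD, n = 6, against 6.16 ± 0.556, n = 4). The log2 fold change was 2.47 (SE 0.17, adjusted p = 4.6e-06, edgeR's quasi-likelihood test).

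Next to it, cyp-35B1 is a known target of the insulin-pathway factor DAF-16. It read 1.69, 0.811, 0.563 and 0.830 CPM in N2 and 2.94 to 6.43 CPM in CB4856 around a median of 4.43. The strains did not overlap, and the log2 fold change was 2.34 (SE 0.38, adjusted p = 0.00171).

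Among the cyp-34A genes of the block, cyp-34A8 read 7.30, 5.76, 10.9 and 15.9 CPM in N2. CB4856 ran from 35.7 to 73.1 CPM around a median of 55.9, again with no overlap (log2 fold change 2.56, SE 0.31, adjusted p = 2.5e-04). Its neighbour cyp-34A9, also a known DAF-16 target, read 7.17, 5.80, 4.20 and 6.86 CPM in N2 and 16.2 to 33.9 CPM in CB4856 (log2 fold change 1.97, SE 0.25, adjusted p = 3.3e-04). The difference was smaller for cyp-34A6, at 2.33 CPM in the median N2 library and 3.82 in the median CB4856 library, though still without overlap (log2 fold change 0.78, SE 0.19, adjusted p = 0.0184). For cyp-34A5 the log2 fold change of 1.00 (SE 0.31) missed the threshold (adjusted p = 0.0521). The members thus differed in size within the block, from 0.78 to 2.56 on the log2 scale.

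The largest fitted log2 fold change between strains was that of cyp-33D1 (WBGene00010589, V, 16173746 to 16175857, minus strand), a gene in another part of chromosome V. It read 0.380, 0.427, 0.173 and 0.131 CPM in N2, against 2.03 to 3.29 CPM in CB4856. The mean was 9.50 times as high in CB4856, with a log2 fold change of 3.31 (SE 0.33, adjusted p = 6.1e-05). In N2 these are 3 to 10 reads a library, so the size of the fold rests on few counts. The paralogue cyp-33D3 read 0.877 CPM at the median in N2 and 0.597 in CB4856, and did not pass the test (adjusted p = 0.300).

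Further genes without overlap between the strains were cyp-33C2 on chromosome V and cyp-13A6 and cyp-13A7 on chromosome II. For cyp-33C2 the N2 libraries read 0.464, 0.469, 0.260 and 0.568 CPM and the CB4856 libraries 1.15 to 1.99 (log2 fold change 1.95, SE 0.26, adjusted p = 5.2e-04). The cyp-13A6 values were 1.14, 0.768, 1.04 and 1.22 CPM in N2 and 1.74 to 3.76 in CB4856 (log2 fold change 1.47, SE 0.29, adjusted p = 0.00606). The rifampicin-inducible cyp-13A7 was low in both, at 0.169, 0.0853, 0.303 and 0.262 CPM in N2 and 0.468 to 2.14 in CB4856 (log2 fold change 2.44, SE 0.55, adjusted p = 0.0129). Counting also cyp-14A4 and cyp-37B1, every CB4856 library lay above every N2 library for 11 of the 60 genes, against 6.06% of all genes tested. The reverse held for 1 of the 60, cyp-34A2, against 8.06% of all genes. The level limit favours such separation in cyp-33D1, cyp-33C2, cyp-13A7 and cyp-34A2, which passed it in 1 strain only. Among the 49 genes that passed in both strains the counts were 8 and 0.

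**Figure D2:**
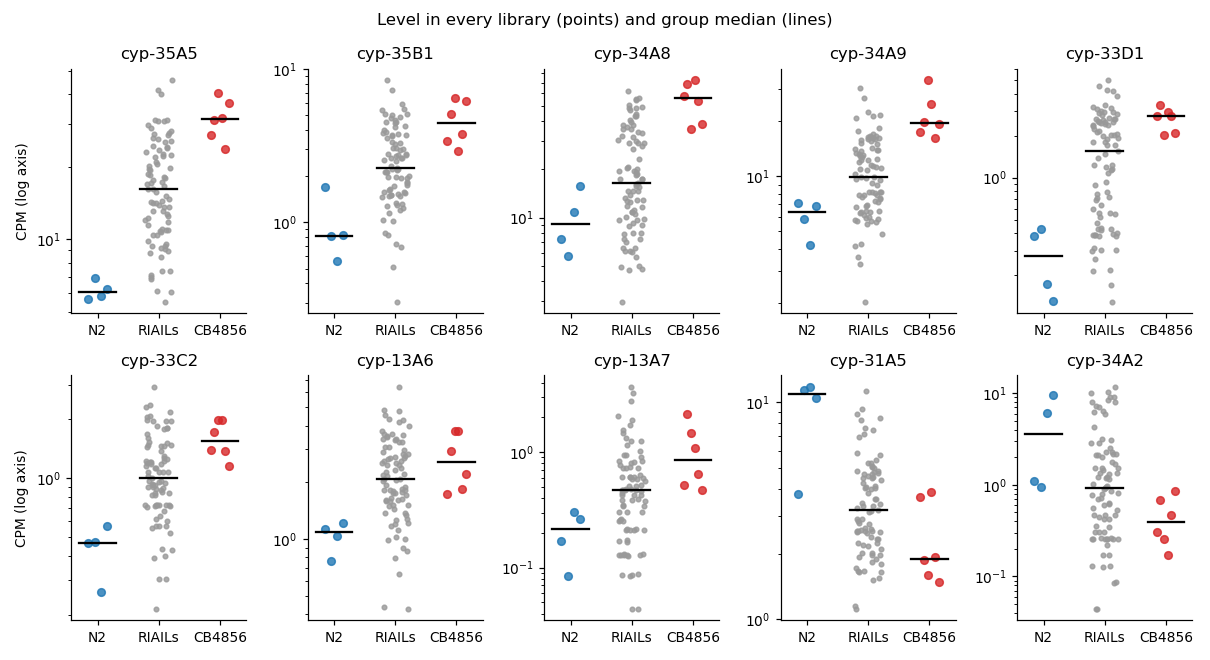
Level in CPM (log axis) of the 10 genes whose call held when any 1 parental library was left out, with 1 point for each library of N2 (4), the RIAILs (85) and CB4856 (6) and a line at each group's median. For cyp-35A5 the 4 blue points sit between 5.65 and 6.91 CPM and the 6 red points between 23.6 and 40.3, with most RIAILs in the space between them.

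The 4 lower genes included 2 of the 3 cyp-31 genes. For cyp-31A5 (WBGene00013381, IV, 13401289 to 13403842, plus strand) N2 read 3.80, 11.4, 11.8 and 10.52 CPM and CB4856 1.49 to 3.88 CPM around a median of 1.91. Only N2 replicate 1 reached into the CB4856 range, and the log2 fold change was -1.86 (SE 0.36, adjusted p = 0.00525). For cyp-31A3, which acts with cyp-31A2 in the eggshell lipid layer, N2 read 6.79, 16.7, 16.3 and 14.3 CPM and CB4856 5.35 to 9.24 (log2 fold change -0.86, SE 0.24, adjusted p = 0.0363). The near copy cyp-31A2 had a log2 fold change of -0.27 (SE 0.33) and did not pass (adjusted p = 0.641). N2 replicate 1 was thus the lowest N2 library for both genes.

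On chromosome V, cyp-34A2 (WBGene00011699, 15288777 to 15291095, minus strand) read 1.10, 0.939, 6.02 and 9.48 CPM in N2 and 0.173 to 0.851 CPM in CB4856. The N2 libraries thus split into a low and a high pair, and all 4 lay above CB4856. Its mean was 9.59 times as high in N2, with a log2 fold change of -3.12 (SE 0.68, adjusted p = 0.0107). The fourth lower gene, cyp-32B1, read 16.4, 7.55, 5.85 and 15.6 CPM in N2 and 3.44 to 7.38 CPM in CB4856, with overlap (log2 fold change -1.10, SE 0.32, adjusted p = 0.0421).

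The other 9 higher genes with a call were cyp-14A4 (log2 fold change 1.83), cyp-37B1 (1.42), cyp-35D1 (1.24), cyp-25A1 (1.12), cyp-35C1 (0.87), cyp-33C9 (0.82), cyp-29A2 (0.78), cyp-43A1 (0.67) and cyp-37A1 (0.61). Each lost its call in edgeR's test without some single library, as did cyp-34A6, cyp-31A3 and cyp-32B1. The call of cyp-14A4 was lost without N2 replicate 2 (adjusted p = 0.09), N2 replicate 3 (0.0832) or CB4856 replicate 2 (0.0597). N2 replicate 2 or 3 also decided cyp-37B1 (0.0601 and 0.0506) and cyp-34A6 (0.0616 and 0.0695). N2 replicate 3 or 4 decided cyp-25A1 (0.0774 and 0.0634) and cyp-35D1 (0.0859 and 0.0693), and N2 replicate 2 or 4 decided cyp-35C1 (0.0563 and 0.0558). The weakest 6 calls held in only 2 or 3 of the 10 fits with a library left out. These were cyp-29A2 and cyp-43A1 (kept without N2 replicate 1 or CB4856 replicate 5), cyp-37A1 (without N2 replicate 1 or CB4856 replicate 3) and cyp-31A3 (without N2 replicate 1, CB4856 replicate 2 or CB4856 replicate 5). The same held for cyp-32B1 (without N2 replicate 2, N2 replicate 3 or CB4856 replicate 1) and cyp-33C9 (without N2 replicate 4, CB4856 replicate 3 or CB4856 replicate 6). In the fits that lost them, the adjusted p of these 6 was 0.0535 to 0.139. When the numbered batches formed a block (8 libraries), cyp-35C1 (adjusted p = 0.115), cyp-14A4 (0.0527), cyp-34A6 (0.0876) and cyp-32B1 (0.0703) were not called.

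The remaining 38 genes did not pass, which does not show that they were equal. Among them were cyp-13A4 (log2 fold change 2.56, SE 0.79, adjusted p = 0.0506), cyp-14A1 (1.40, SE 0.50, adjusted p = 0.0842) and cyp-14A2 (0.59, SE 0.20, adjusted p = 0.0739). Of the cyp-35A genes beside cyp-35A5, cyp-35A2 had a log2 fold change of 0.58 (SE 0.25), cyp-35A3 of 0.12 (SE 0.38) and cyp-35A4 of 0.83 (SE 0.34), with adjusted p from 0.128 to 0.871. The eicosanoid-forming enzymes cyp-33E2 (0.39, SE 0.21) and cyp-29A3 (0.45, SE 0.35) did not pass, nor did cyp-33E1 (0.41, SE 0.15), cyp-36A1 (0.32, SE 0.24), a gene of the EGL-9 and HIF-1 oxygen response, and the mitochondrial-type P450 cyp-44A1 (-0.20, SE 0.13).

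Markers of some tissues moved with the strain as well. None of the 6 hypodermis, 6 muscle and 6 vitellogenin genes passed the test, and 4 of 25 sperm genes were lower in CB4856. The 8 intestine markers had summed levels of 4966 to 7117 CPM in N2 and 6009 to 9022 in CB4856, all 8 had a log2 fold change above 0, and elt-2, ges-1 and pept-1 passed the test. None of the 8 was at 0 in any parental library. Their mean score (in SD units) was -3.06 to -0.94 in N2 and -0.79 to 1.85 in CB4856, with no overlap. With that score as a covariate only cyp-35A5 (log2 fold change 2.25), cyp-33D1 (4.02), cyp-34A8 (2.30) and cyp-31A5 (-2.70) kept their call. Among the calls lost, cyp-35B1 (2.78, adjusted p = 0.0507), cyp-33C2 (1.84, 0.056), cyp-25A1 (1.87, 0.054), cyp-13A7 (2.66, 0.152) and cyp-34A2 (-4.16, 0.0655) had log2 fold changes near or above those of the fit without the score. Those of cyp-33C9 (0.01) and cyp-35C1 (0.09) were near 0. Since the score separates the strains without overlap, it and the strain can hardly be told apart. The 12 oocyte genes summed to 310 to 2078 CPM in N2 and 343 to 859 in CB4856, and 7 were lower in CB4856. N2 replicate 1 was the low value, the other 3 N2 libraries having scores of 1.81 to 2.31 and the CB4856 libraries -0.96 to 0.51. With the oocyte score as a covariate 9 of the 22 kept their call, cyp-31A5 (log2 fold change -1.01) and cyp-32B1 (-1.49) among the lower genes, while cyp-31A3 had a value of -0.25 (adjusted p = 0.215). With the library series as a block, which leaves the contrast to series B, F and G, only cyp-35A5 (2.45), cyp-33D1 (3.69) and cyp-34A9 (1.75) were called. Log2 fold changes of other genes stayed large without passing, at 2.39 for cyp-34A8 (adjusted p = 0.0597), 2.48 for cyp-35B1 (0.0571), -2.05 for cyp-31A5 (0.106) and 1.83 for cyp-33C2 (0.101). Without both replicates 1, 29 genes were called, of which 21 were among the 22. Shares over all genes are not given here for these alternative fits, so their counts cannot be read as particular to the family. The part of tissue composition, germline content and series in the strain differences was not tested beyond these fits.

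Genes that work with the P450 enzymes differed in places. Of 4 partner genes, the P450 reductase emb-8 was higher in CB4856 (187 to 272 CPM against 149 to 197, log2 fold change 0.50, adjusted p = 0.0335). Of 9 regulators, 3 nuclear receptors were higher and none lower. The gene nhr-8, related to the xenobiotic receptors of mammals, read 18.3 to 24.3 CPM in N2 and 32.7 to 57.5 in CB4856 (log2 fold change 0.95, adjusted p = 0.00393). The others were nhr-86 (0.37, adjusted p = 0.0136) and nhr-48 (0.32, adjusted p = 0.0401). The stress factor skn-1 missed the threshold (0.28, adjusted p = 0.0517), and the aryl hydrocarbon receptor ahr-1 did not pass (0.31, adjusted p = 0.526). In the dafachronic acid pathway, 5 of 6 genes were tested. The cholesterol desaturase daf-36 was higher in CB4856 (1.10, adjusted p = 0.00465), while the P450 gene daf-9 had a value of -0.03 (adjusted p = 0.952). Of 7 genes of polyunsaturated fatty acid and eicosanoid metabolism, the desaturase fat-2 was higher (0.51, adjusted p = 0.0138) and none was lower.

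Among the RIAILs the question was how far the lines differ from each other. Each line has 1 library, so differences were tested against the spread among libraries of N2 and of CB4856. Of the 60 genes, 4 varied beyond that spread at an adjusted p under 0.05 in edgeR's test, a share near the 5.56% of all 17058 genes tested. At an unadjusted p under 0.05 there were 20 of the 60 (33.3%), against 17% of all genes. Genes that passed the level limit in 1 strain only had to differ between the strains, which favours variation among the lines. Among the 49 genes that passed in both strains, 3 were called and 13 had an unadjusted p under 0.05. The 4 genes were cyp-35A5 (adjusted p = 0.00928), cyp-33D1 (0.0155), cyp-33A1 (0.0383) and cyp-34A8 (0.0413), all on chromosome V.

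In the RIAILs cyp-35A5 read 5.50 CPM at the lowest, 16.2 at the median and 45.8 at the highest, the last in QX546. Of the 85 lines, 61 lay between the N2 and the CB4856 ranges, 3 within the N2 range, 18 within the CB4856 range, 2 above both and 1 below both. Most lines thus lay between the strains.

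For cyp-33D1 the RIAILs read 0.128 CPM at the lowest, 1.54 at the median and 5.03 at the highest. Of the lines, 16 lay within the N2 range, 27 within the CB4856 range, 35 between, 6 above and 1 below. The SD of log2 CPM was 1.20 among RIAILs and 0.44 within the parental strains. For cyp-34A8 the lines read 2.95, 16.4 and 61.996 CPM at the lowest, median and highest, with 35 in the N2 range, 19 in the CB4856 range and 25 between. No line exceeded the highest CB4856 library.

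The gene cyp-33A1 differed from the other 3 in that it was not called between the strains, at 13.7 to 17.96 CPM in N2 and 10.8 to 14.6 in CB4856 (log2 fold change -0.14, SE 0.12, adjusted p = 0.482). Its lines read 6.83, 14.4 and 22.97 CPM at the lowest, median and highest, and 19 lay above and 20 below every parental library. Its SD was 0.43 among RIAILs and 0.15 within the strains.

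The calls of cyp-35A5 and cyp-33D1 held in every alternative fit. That of cyp-34A8 was lost without CB4856 replicate 2 (adjusted p = 0.0638), 3 (0.0938), 4 (0.0613), 5 (0.0662) or 6 (0.0701) or N2 replicate 3 (0.0813), and with limma-voom (0.0753). With 1 library left out, the call of cyp-33A1 held only without N2 replicate 1 or CB4856 replicate 4, with 0.0633 to 0.0936 in the other 8 fits. It was also lost with no filter on low counts (0.0684) and when lines were compared within their series (0.0583). Without CB4856 replicate 2, 5 or 6 the count fell from 4 to 2, and without N2 replicate 1 it rose to 7. The shares over all genes in these fits are not given here.

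The SD of log2 CPM among RIAILs ranged from 0.24 for cyp-44A1 to 1.70 for cyp-34A2, with a median of 0.68. Among the 59 genes with counts in every line, the highest line was a median of 10.1 times the lowest. Values over all genes are not given here, so neither the SD nor the fold can be read as particular to the family. Folds of low genes rest on few reads, such as 8 in the median line for cyp-13A4.

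Some extremes rested on a few lines. The highest cyp-13A5 value was 93.9 CPM in QX543, 16.4 times the median line, and the next line read 48.8. For cyp-32B1 QX571 read 85.9 CPM, 8.05 times the median, and the next line 31.5. In cyp-33C8 the top lines were close to each other, at 100.8 and 95.5 CPM against a median of 27.9. QX571 was the highest line for 7 of the 60 genes, and QX543 and QX544 for 5 each. QX571 belongs to series E, the other 2 lines to series C.

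Neighbouring genes often varied together. Pairs were formed from members that follow each other on a chromosome with under 20 kb between them, which gave 25 pairs. Across the 85 lines the Pearson r of log2 CPM had a median of 0.396 over the 25 pairs and of 0.191 over the other 1745 pairs of members. Of the 25, 20 were positive with an adjusted p under 0.05, 1 was negative with an adjusted p under 0.05 and 4 did not pass (100000 permutations, two-sided, Benjamini-Hochberg adjustment over the 25 pairs). The other 1745 pairs were not tested, so the share of them that would pass is not known. The count of 20 therefore cannot be read as particular to neighbours. All pairs of members share library and depth, and neighbours may also share reads. Those parts were not tested.

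The strongest pair was cyp-35A3 and cyp-35A4, separated by 7136 bases on chromosome V (r = 0.725, rho = 0.706, each with an adjusted permutation p of 2.78e-05, n = 85). Without the 2 lines farthest from the median the r was 0.719, and within the 7 series it ran from 0.503 to 0.887. Neither gene was called between the strains: cyp-35A3 had a median of 1.87 CPM in N2 and 1.69 in CB4856. For cyp-35A5 and cyp-35B1, 434 bases apart, r was 0.547 and rho 0.569 (adjusted permutation p = 2.78e-05 for both), 0.577 without the 2 farthest lines, and -0.0922 to 0.847 within series. Across the block, cyp-35B1 and cyp-34A9 had an r of 0.772 and cyp-35A5 and cyp-34A9 of 0.629, given here as a description. The r of cyp-34A8 with cyp-35B1 was 0.207 and that of cyp-34A5 with cyp-35A5 0.0515, though cyp-34A5 had only 15 reads in the median line. For cyp-34A8 with cyp-34A9 it was 0.301, and 0.567 with the oocyte, sperm and molting scores regressed out. The r thus differed among pairs of the block.

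On chromosome II the run from cyp-13A1 to cyp-13A8 gave 7 positive pairs. The highest were cyp-13A4 with cyp-13A5 (r = 0.660, rho = 0.640) and cyp-13A2 with cyp-13A3 (r = 0.644, rho = 0.567), all with an adjusted permutation p of 2.78e-05. With levels centred within series, which removes shared series means, these pairs fell to 0.551 and 0.522. The pairs cyp-13A1 with cyp-13A2, cyp-13A3 with cyp-13A4, cyp-13A5 with cyp-13A6 and cyp-13A7 with cyp-13A8 no longer passed after centring (r of 0.198, 0.209, 0.215 and 0.0758). Other strong pairs were cyp-25A1 with cyp-25A2 on chromosome III (r = 0.646) and cyp-14A1 with cyp-14A2 on X (r = 0.504). With the oocyte, sperm and molting scores regressed out these were 0.450 and 0.292, and cyp-14A2 with cyp-14A4 (0.424 before, 0.148 after), cyp-35B1 with cyp-34A5 (0.344 and 0.206) and cyp-13A7 with cyp-13A8 (0.323 and 0.202) no longer passed.

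With levels neither centred nor corrected for the scores, a negative r that passed was found in 1 pair. For cyp-33C5 and cyp-33C6, which lie 224 bases apart on opposite strands, r was -0.494 and rho -0.487 (adjusted permutation p = 2.78e-05 for both). It was -0.460 without the 2 farthest lines and below 0 in all 7 series (-0.692 to -0.0645). Lines with more cyp-33C5 had less cyp-33C6, though cyp-33C6 had only 10 reads in the median line. The 3 other pairs among cyp-33C3 to cyp-33C7 had r of -0.109 to -0.137 and did not pass, though cyp-33C6 with cyp-33C7 did after centring (r = -0.310). For cyp-32B1 with cyp-33C12, 19 bases apart, r was -0.178 (adjusted permutation p = 0.116) and rho -0.350 (0.00179). With the oocyte, sperm and molting scores regressed out, more negative pairs passed. These were cyp-33C3 with cyp-33C5 (r = -0.376), cyp-32B1 with cyp-33C12 (-0.313) and cyp-33C6 with cyp-33C7 (-0.276).

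**Figure D3:**
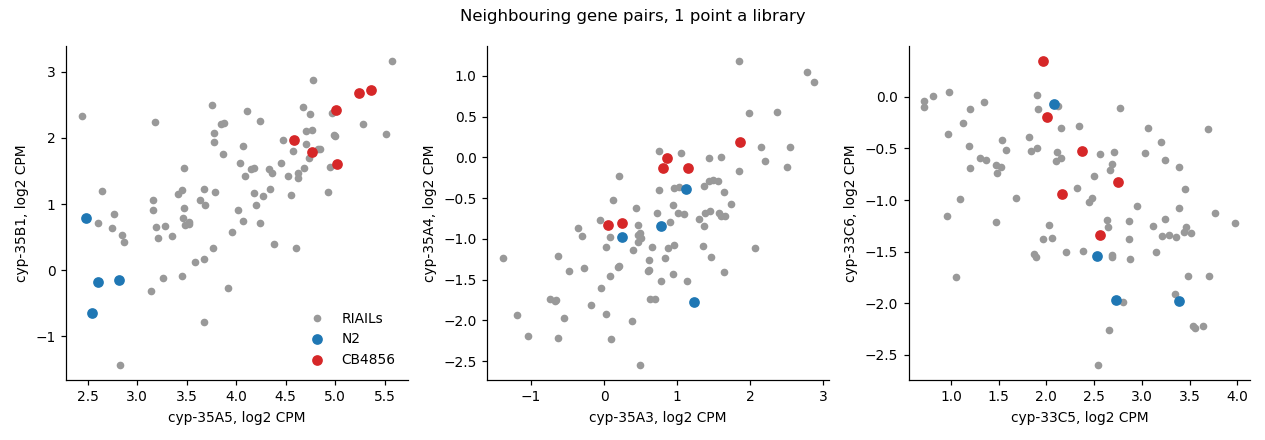
Log2 CPM of neighbouring genes plotted against each other, with 1 point for each library (grey, 85 RIAILs; blue, 4 N2; red, 6 CB4856). The left panel shows cyp-35A5 and cyp-35B1 (r = 0.547 over the RIAILs), the middle panel cyp-35A3 and cyp-35A4 (r = 0.725) and the right panel cyp-33C5 and cyp-33C6 (r = -0.494), the only one of the 3 that slopes down.

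RIAIL libraries were also compared between library series. Of the 60 genes, 45 differed between the 7 series (adjusted p under 0.05, edgeR's quasi-likelihood test), or 75%, against 61.4% of all 16686 genes tested. Lines were not repeated across series, so series and line cannot be told apart for any 1 library. Series C had the highest median of the 7 for 45 of the 60 genes, and for 36 of the 45 that were called. Series F had the lowest median for 21 genes and series A for 14. How often each series was highest or lowest over all genes was not counted, so these counts cannot be read as particular to the family. Without series C the count of called genes was 25, for which no share over all genes is given here.

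The 6 genes with the smallest p were cyp-33C9, cyp-13A1, cyp-13A2, cyp-29A3, cyp-13A5 and cyp-35C1. For cyp-13A5 the median was 20.5 CPM in series C, 10.9 in B and 2.725 in G, so the highest series was 7.54 times the lowest (adjusted p = 5.17e-09). The eicosanoid enzyme cyp-29A3 had 10.1 CPM in series C, 8.85 in A and 4.02 in F (adjusted p = 1.65e-09). The xenobiotic-inducible cyp-35C1 followed the same order, with 38.4 in C, 28.6 in A and 15.0 in F (adjusted p = 5.36e-08).

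The genes cyp-13A1 and cyp-13A2 also peaked in series C. The medians of cyp-13A2 were 29.8 CPM in C, 16.1 in A and 10.2 in D (adjusted p = 9.12e-10), and those of cyp-13A1 1.54 in C and 0.416 in B (adjusted p = 8.11e-10). For cyp-33C9 series G (31.04 CPM) was close to C (31.96), and F was lowest at 17.1 (adjusted p = 2.19e-10). The CB4856 library of series C, replicate 1, was also the highest CB4856 library for cyp-13A5 (26.7 CPM against 3.79 to 5.31 in the others) and for cyp-13A2 (46.2 against 8.25 to 19.02).

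**Figure D4:**
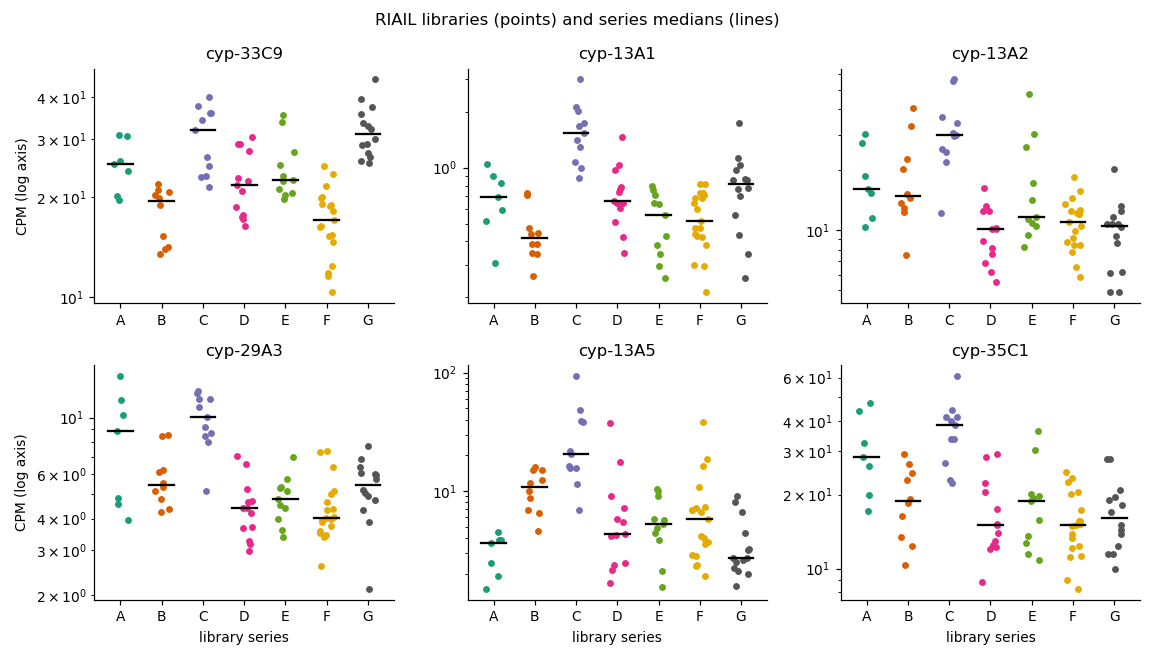
CPM (log axis) of the 6 genes with the smallest series p in each RIAIL library (points), by library series, with a line at each series median. Series C has the highest line in all 6 panels, for example 20.5 CPM for cyp-13A5 against 2.725 in series G.

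A molting score was formed from 21 genes of the cuticle and of molting (mean z-score of log2 CPM, scaled to an SD of 1 among RIAILs), since larvae remake their cuticle at each stage and libraries differed in these genes. Slopes are log2 changes per SD of the score with library series in the fit. Of the 60 genes, 29 rose and 8 fell with the score, against 31.2% of all genes in the rising and 31.2% in the falling direction. The median slope was 0.17 over the 60 genes and 0.0098 over all genes.

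The gene cyp-42A1 followed the score almost line by line. Its level was 4.19 CPM at the lowest, 22.9 at the median and 53.4 at the highest, and its slope of 0.91 (SE 0.03, adjusted p = 8e-47 in edgeR's test) was 16th of 16686 genes by p. Its r with the score was 0.976 and its rho 0.970 over 85 lines (adjusted permutation p of 5.71e-05 and 8e-05 over 120 relations), 0.974 without the 2 lines farthest from the median score, and 0.934 to 0.987 within series. The gene is not one of the 21 in the score. Between the parental strains it was not called (log2 fold change 0.25, SE 0.52, adjusted p = 0.795), and its N2 libraries spread by an SD of 13.8 CPM around a mean of 20.4.

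The next slopes were those of cyp-23A1 (0.57, SE 0.03, adjusted p = 1.14e-25), cyp-13B1 (0.52, SE 0.10), cyp-13A3 (0.45, SE 0.10) and cyp-13A10 (0.44, SE 0.08). All 4 cyp-14A genes, 5 of 7 cyp-35 genes and 7 of 11 cyp-13 genes rose. The most negative slopes were those of cyp-34A2 (-0.71, SE 0.19), cyp-32A1 (-0.65, SE 0.07), cyp-34A8 (-0.44, SE 0.13), cyp-31A2 (-0.43, SE 0.06) and cyp-31A5 (-0.39, SE 0.07). All 3 cyp-31 genes fell, as did all 12 oocyte genes and all 6 vitellogenin genes, while 23 of 25 sperm genes fell. The slope of cyp-34A2 was not called with limma-voom (-0.16, adjusted p = 0.509), and its r with the score was -0.223 (rho -0.132, adjusted permutation p = 0.0851 and 0.33), -0.138 without the 2 farthest lines and -0.317 to 0.508 within series.

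**Figure D5:**
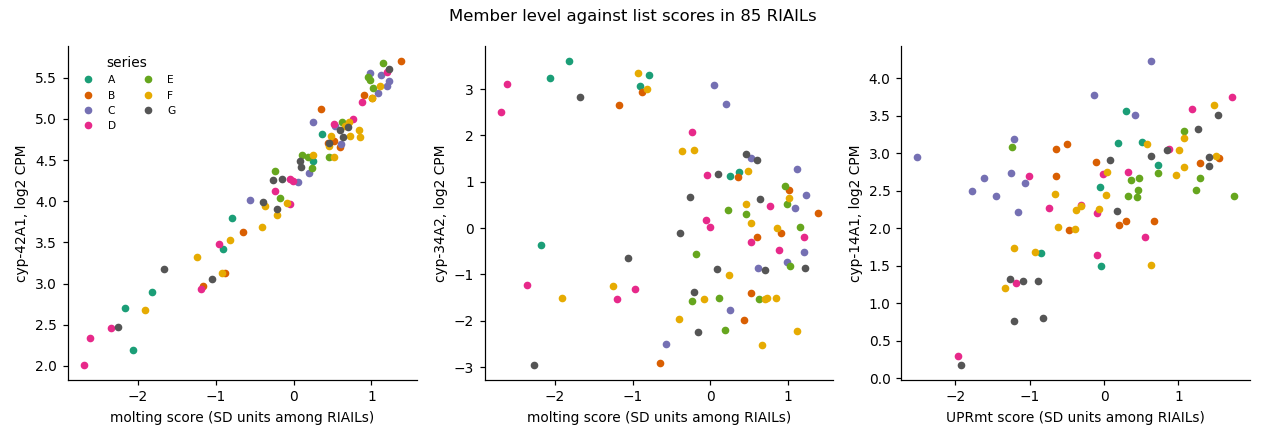
Log2 CPM of 3 genes in the 85 RIAILs against a list score in SD units, with points coloured by library series. The left panel shows cyp-42A1 rising in step with the molting score (r = 0.976), the middle panel cyp-34A2 scattered against the same score (r = -0.223) and the right panel cyp-14A1 rising with the UPRmt score (r = 0.546).

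The study is about the mitochondrial stress response, so a second score was built in the same way from 10 genes of the mitochondrial unfolded protein response (UPRmt), such as the chaperone genes hsp-6 and hsp-60. In CB4856 these 10 summed to 1574 to 2067 CPM and in N2 to 1208 to 1582. Slopes were fitted among RIAILs with series and molting score in the fit. Of the 60 genes, 11 rose and 7 fell with the UPRmt score, against 12% and 11.7% of all genes. Of the germline lists, 10 of 12 oocyte and 11 of 25 sperm genes fell with it, and their part was not tested.

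The rising genes were led by the cyp-14A subfamily. The slope of cyp-14A1 was 0.53 (SE 0.06, adjusted p = 5.07e-10, edgeR's quasi-likelihood test), 125th of 16686 genes by p. Its levels in the lines were 1.11 CPM at the lowest, 6.03 at the median and 18.2 at the highest. Its r with the score was 0.546 (rho 0.521, adjusted permutation p of 5.71e-05 and 8e-05), 0.558 without the 2 farthest lines, 0.721 after centring within series and -0.316 to 0.946 within the series, 5 of the 7 being above 0. Its neighbour cyp-14A4 had a slope of 0.48 (SE 0.09, adjusted p = 3.88e-05), with 1.75, 10.49 and 34.3 CPM at the lowest, median and highest, and an r above 0 in all 7 series (0.216 to 0.755). For cyp-14A2 the slope was smaller but called, while cyp-14A5 had a slope of 0.01 (adjusted p = 0.872). Within 1 subfamily, 3 of 4 genes thus rose with the score and the most abundant one did not pass.

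Other rising genes were cyp-13A12 (0.46, SE 0.08, adjusted p = 9.5e-06), known from behaviour after reoxygenation, cyp-13A8 (0.43, SE 0.10) and cyp-33C8 (0.39, SE 0.10). The largest falling slope was that of cyp-13A5 (-0.59, SE 0.10, adjusted p = 7.94e-06). The others named by the same rule were cyp-13A3 (-0.33, SE 0.08, adjusted p = 0.0026), cyp-31A5 (-0.24, SE 0.07, adjusted p = 0.00533), cyp-33D3 (-0.22, SE 0.07, adjusted p = 0.0228) and cyp-36A1 (-0.13, SE 0.04, adjusted p = 0.0243). Genes of the same cyp-13A run on chromosome II therefore took both signs.

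These counts depended on the series in the fit. Without it 16 genes were called, 4 rising and 12 falling, of which 8 were among the 18. The share over all genes in that fit is not given here, so the 16 cannot be read as particular to the family. The slope of cyp-13A8 was then 0.04 (adjusted p = 0.845) and that of cyp-33C8 0.22 (0.0792). Across all alternatives, cyp-14A1, cyp-14A2, cyp-14A4, cyp-13A12 and cyp-13A5 kept their call. Without QX571 the slope of cyp-13A3 was not called (adjusted p = 0.101), nor was that of cyp-36A1 (0.0571) or of cyp-44A1 (0.0905).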

How the data were processed

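Worms of 85 RIAILs, N2 and CB4856 on Dox were sequenced (BGISEQ), and the authors deposited 1 table of raw counts per gene, made after alignment with STAR 2.73a to WBcel235. The counting tool, strand setting and annotation release were not given in the sources used here. All 95 columns were used (0 were left out). Symbols, exon lengths and positions came from the Ensembl release 115 annotation of WBcel235. Members and lists were chosen with earlier results of these data known. Genes were named by rule: up to 12 called members per direction by fold change, the called members of widest spread among RIAILs, the 6 smallest series p, the 5 largest slopes per direction, the 10 highest levels per kb, and genes of known role. Others (such as cyp-34A5, cyp-34A6, cyp-13A4 and neighbouring pairs) were chosen after their values were seen.

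Tests used edgeR 4.0.16 (quasi-likelihood, TMM, filterByExpr) in R 4.3.3, with Benjamini-Hochberg adjustment over all genes tested and a threshold of 0.05. For variation among RIAILs, the dispersion trend was estimated in the parental libraries. For log2 CPM the prior count was 2. Correlation p-values came from 100000 permutations (numpy, scipy), and 1e-05 is the smallest unadjusted p they can give. Limma 3.58.1 (voom), DESeq2 1.42.0, other normalization and filters, covariates and leaving out libraries were alternatives. The scripts were tested on simulated data. The titles call the numbers 1 to 4 of N2 and CB4856 batches, so same-numbered libraries were taken as paired, and the deviations of a pair correlated at 0.684, 0.194, 0.0878 and -0.511. Depth was 22121202 to 23879871 counts per library.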

Additional observations from a re-analysis of the deposited data

Results flagged for a closer look

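For 94 sets of values (the named members, each in N2 and in CB4856), the gap of the highest or lowest library to its nearest neighbour was set against the range of the group, a rule that chance meets in about 1 of 20 groups. It was met in 11. In CB4856 replicate 1, the library of series C, 6 genes stood high: cyp-13A2 (46.2 CPM, others 8.25 to 19.02), cyp-13A5 (26.7, others 3.79 to 5.31), cyp-13A10 (3.24, others 0.470 to 1.26), cyp-13B1 (7.51, others 1.39 to 3.35), cyp-14A5 (296, others 123 to 162) and cyp-29A3 (13.4, others 3.78 to 7.09). In N2 replicate 1, from series B, cyp-13A5 (16.4 CPM, others 3.97 to 4.72), cyp-29A3 (7.97, others 4.31 to 4.72) and cyp-43A1 (26.9, others 15.7 to 17.03) stood high and cyp-31A5 (3.80, others 10.52 to 11.8) low. In CB4856 replicate 6, cyp-44A1 stood low (10.3 CPM, others 11.8 to 12.4). Both replicates 1 together held 10 of the 11.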

How the results depend on the processing

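For N2 against CB4856 the count of 22 called genes was 20 with limma-voom, 28 with DESeq2 and 24 with the molting score as a covariate, and stayed 22 with RLE normalization and other filters. It fell to 13 in the 8 numbered libraries without a replicate block and was 20 with the replicate block, to 3 with library series as a block, and, in alternatives chosen after seeing the data, to 12 with the oocyte score and 4 with the intestine score as a covariate. Leaving out 1 library gave 13 to 28, with 14, 13 and 14 without N2 replicate 2, 3 and 4. In all 10 of these fits 10 of the 22 kept their call, and cyp-35A5 and cyp-33D1 did so in every alternative. The 4 genes that varied among RIAILs were 2 to 7 without 1 parental library, 2 without CB4856 replicate 2, 5 or 6 and 7 without N2 replicate 1. The 45 genes that differed by series were 25 without series C, chosen after seeing the data. The counts for both scores and for neighbouring pairs stayed within 1.5 times, though the 16 UPRmt calls without series (4 rising, 12 falling, against 11 and 7) shared 8 genes with the 18. No called fold change or slope reversed its sign. The cause of each change was not tested. Shares over all genes are not given here for the alternative fits, so a change in count cannot be read as particular to the family. Genes under about 1 CPM rest on few reads, which limits what differences are detectable at this depth.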
